A study of Mus musculus with 6 samples.

Results

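The GABA system was followed in islet transcriptomes through 8 of the 54119 annotated genes to which reads could be assigned, taken by GENCODE symbol. They are Gad1 and Gad2 (synthesis), Abat and Aldh5a1 (breakdown), Gabra4, Gabbr1 and Gabbr2 (receptors) and Slc6a6 (transport). Hand-picked islets of 3 Dpy30 knockout and 3 control mice, all C57BL/6 males aged 24 days after birth, gave 1 poly(A) library per mouse, so the replicates are separate animals. Dpy30 is a core subunit of the enzymes that add methyl groups to lysine 4 of histone H3, a mark of promoters in use, and the series asks about that mark in islet endocrine cells maturing after birth. Which Cre driver was used, which exon was deleted and which alleles the controls carried are not stated in the labels.

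GABA, the main inhibitory transmitter of the brain, is also made in pancreatic islets, above all in beta cells. Glutamate decarboxylase makes it from glutamate, and a transaminase and a dehydrogenase return its carbon to the tricarboxylic acid cycle. GABA acts through GABA-A receptors, which are chloride channels, and through GABA-B receptors, which are G protein-coupled and made of 1 GABBR1 and 1 GABBR2 subunit.

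Of these genes only the GABA-B subunit Gabbr2 differed between the groups at the threshold used, an adjusted p below 0.05 in edgeR's quasi-likelihood test over all tested genes. It fell to 21.0 ± 4.67 CPM in knockout islets, against 55.2 ± 12.3 CPM in control islets (SD, n = 3 each; CPM are read counts scaled to the library). Its partner Gabbr1, the synthetic enzyme Gad1, the catabolic enzymes Abat and Aldh5a1, the GABA-A subunit Gabra4 and the transporter Slc6a6 did not pass the threshold. Gad2 had too few reads to be tested. The called share was thus 1 of 7 tested members (14.3%), and over all 16430 tested genes it was 9.95%. In the direction of Gabbr2 it was 1 of 7, beside 5.84% of all genes called lower. The median log2 fold change was -0.02 over the 7 members and 0.01 over all tested genes.

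**Figure D1:**
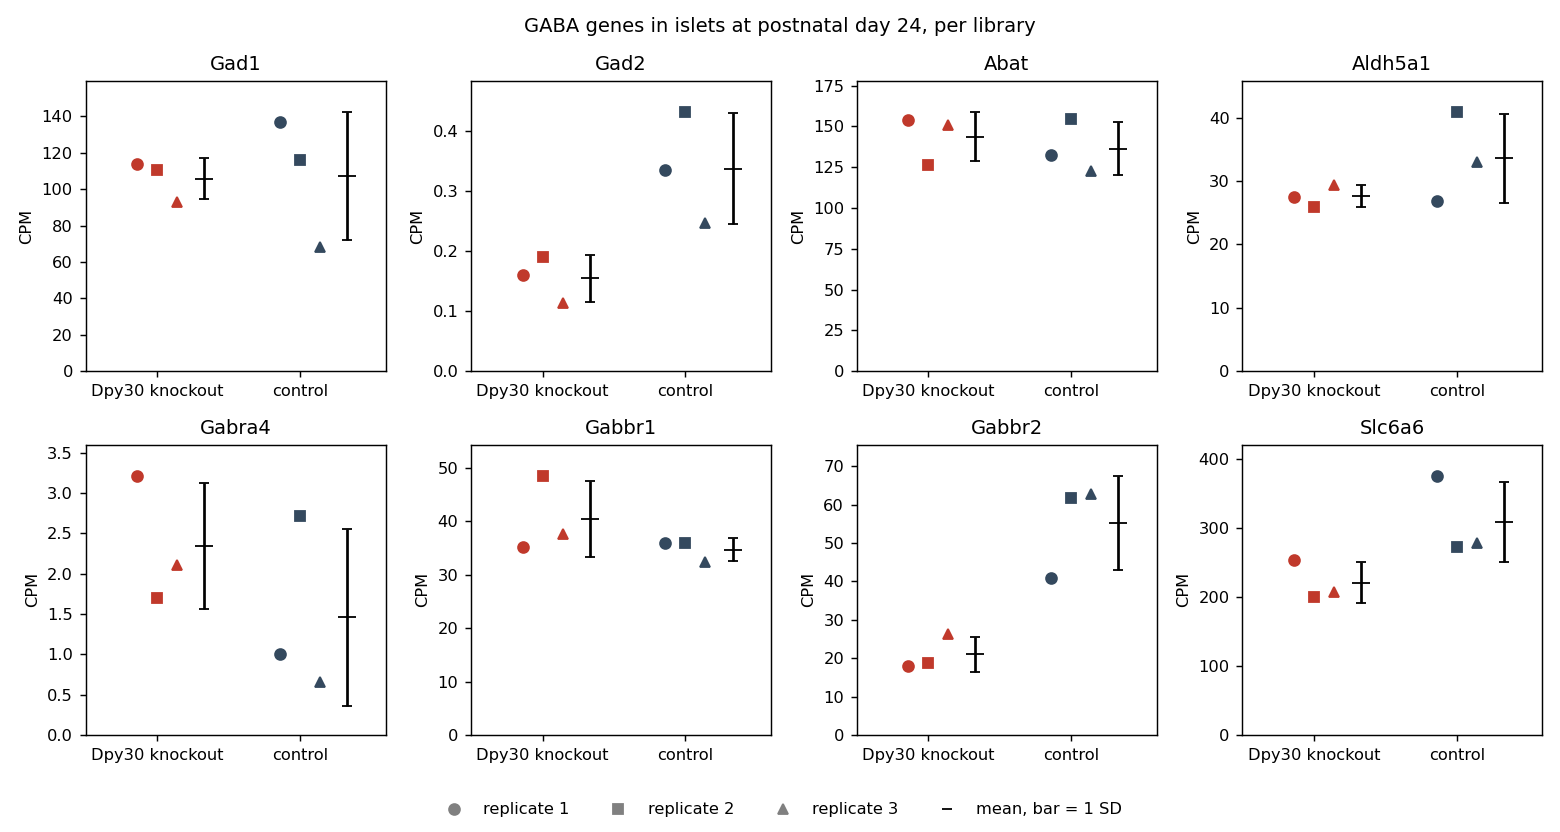
CPM of the 8 GABA genes in each library (y axis, linear, from 0), with the 3 Dpy30 knockout libraries in red and the 3 control libraries in dark blue. Marker shape gives the replicate number, and the black bar gives the mean and 1 SD. The Gabbr2 libraries lie between 17.9 and 26.4 CPM in knockout and between 41.0 and 62.9 CPM in control islets.

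The libraries held 17131515 to 23976598 estimated reads in knockout and 24575889 to 25354384 in control islets. Transcripts lacking exon 4 of Dpy30 held 80.5 to 82.2% of its reads in the knockout and 0.438 to 5.24% in the control libraries, which matched their labels. The predicted gene Gm42418 took 14.7% of the reads of knockout replicate 2, against 0.0990 to 0.236% in the other libraries. Insulin reads took 6.51 to 9.66% of the knockout and 13.6 to 21.9% of the control libraries. TPM, which scale by length and add up to a fixed total, were shifted between the groups: the median tested gene was 0.32 higher in knockout islets on the log2(TPM + 0.1) scale. Groups are therefore compared in CPM scaled by TMM, a method that brings the bulk of genes near no change. Their median log2 fold change of 0.01 follows from that scaling and does not show that a shift is absent. TPM serve to compare genes with each other.

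Ordered by TPM, the members spanned a wide range in both groups. In knockout islets Slc6a6 averaged 54.8 ± 15.2, Gad1 39.3 ± 8.45, Abat 38.4 ± 12.1, Gabbr1 18.0 ± 0.304, Aldh5a1 5.63 ± 1.61, Gabbr2 4.24 ± 1.63, Gabra4 0.703 ± 0.370 and Gad2 0.0305 ± 0.00574 TPM. In control islets Slc6a6 averaged 60.1 ± 16.0, Gad1 34.1 ± 13.4, Abat 28.1 ± 1.07, Gabbr1 13.7 ± 0.650, Gabbr2 8.75 ± 1.78, Aldh5a1 5.35 ± 0.705, Gabra4 0.384 ± 0.260 and Gad2 0.0541 ± 0.0100 TPM. The ranges of Slc6a6 and Gad1 overlapped, as did those of Gad1 and Abat, in both groups. Gabbr2 stood above Aldh5a1 in control islets with no overlap, whereas in knockout islets its range overlapped that of Aldh5a1.

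Synthesis rested on Gad1 at the RNA level. Gad1, which encodes the 67 kDa glutamate decarboxylase, lies on chromosome 2 from 70553072 to 70602014 on the plus strand in GRCm38. Its knockout libraries read 114, 111 and 93.1 CPM, and its control libraries 137, 116 and 68.3 CPM. The knockout values all lay inside the control range. The log2 fold change was -0.02 (95% interval -0.58 to 0.55; adjusted p = 0.974, edgeR quasi-likelihood test), so a difference of either sign within that interval is compatible with these libraries.

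Gad2, for the 65 kDa decarboxylase known as an autoantigen of human type 1 diabetes, lies on the same chromosome from 22622205 to 22693874, also on the plus strand. It had 4.06, 3.07 and 3.17 estimated reads in the knockout libraries and 8.28, 10.1 and 6.23 in the control libraries. These counts were below the filter on low counts, so Gad2 was not part of the fit. Gad1 accordingly held 99.9% ± 0.0107 of the summed Gad1 and Gad2 TPM in the knockout libraries and 99.8% ± 0.0450 in the control libraries (SD over 3 each). The difference was 0.09 percentage points, and an exact two-sided permutation test gave p = 0.1, the smallest value that 3 libraries against 3 allow.

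The enzymes of GABA breakdown did not pass the test. Abat, the mitochondrial transaminase that converts GABA to succinic semialdehyde, lies on chromosome 16 from 8513429 to 8621568 on the plus strand. Abat read 154, 127 and 151 CPM in knockout and 132, 154 and 122 CPM in control islets. The groups overlapped across most of their range, with a log2 fold change of 0.08 (95% interval -0.27 to 0.42; adjusted p = 0.786). Aldh5a1, the dehydrogenase that oxidises succinic semialdehyde to succinate, lies on chromosome 13 from 24907579 to 24937661 on the minus strand. It read 27.5, 26.0 and 29.4 CPM in knockout and 26.8, 40.9 and 32.97 CPM in control islets. Control replicates 2 and 3 lay above all knockout libraries and control replicate 1 lay among them. The log2 fold change was -0.28 (95% interval -0.68 to 0.12; adjusted p = 0.338). An RNA on the opposite strand, 9330162012Rik, overlaps Aldh5a1 and had 354.9 reads over all libraries against 4275 for Aldh5a1.

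The GABA-B receptor needs both subunits: GABBR1 binds the ligand, and GABBR2 couples to G proteins and carries GABBR1 to the cell surface. Gabbr2 lies on chromosome 4 from 46662305 to 46991873 on the minus strand, and Gabbr1 on chromosome 17 from 37045966 to 37075067 on the plus strand. Because H3K4 methylation is known to gather at promoters rich in CG dinucleotides, the bases upstream of the first annotated start of each gene are shown for this pair, of which 1 gene was called. The sequences are from RefSeq (GRCm38.p6), 5′ to 3′ on the gene's strand, with each CG in capitals. The first covers chr4:46991874-46991964 and the second chr17:37045716-37045965.
Gabbr2: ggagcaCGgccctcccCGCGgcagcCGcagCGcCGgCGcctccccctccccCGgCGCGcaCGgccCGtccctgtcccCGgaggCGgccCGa
Gabbr1: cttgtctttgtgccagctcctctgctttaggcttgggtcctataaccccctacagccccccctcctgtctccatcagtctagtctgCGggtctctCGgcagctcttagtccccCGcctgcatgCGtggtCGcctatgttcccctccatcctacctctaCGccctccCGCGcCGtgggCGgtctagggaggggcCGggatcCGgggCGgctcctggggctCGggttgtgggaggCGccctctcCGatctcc

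Both stretches are dense in CG, with 15 in the 91 bases of Gabbr2 and 16 in the 250 bases of Gabbr1. In the window of RefSeq promoters, 250 bases before to 50 after a gene's start, Gabbr2 held 46 CG dinucleotides. At least as many were held by 1.65% of all 32851 windows. CG reads the same on both strands. Of the 8 members 6 matched the table, and the others held 24 (Aldh5a1), 21 (Gad1), 18 (Gabbr1), 14 (Gad2) and 12 (Gabra4), above the median of 7 over all windows. Such counts are common: the share of windows with at least as many ran from 20.0% for Aldh5a1 to 39.6% for Gabra4. Abat and Slc6a6 were not matched. No histone mark was measured in the files used here, so these counts describe the sequence alone.

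Gabbr2 read 17.9, 18.7 and 26.4 CPM in knockout islets, from 447, 296 and 701 estimated reads. It read 41.0, 61.7 and 62.9 CPM in control islets, from 983, 1433 and 1532 reads. All knockout libraries lay below all control libraries. The fitted level in knockout islets was 0.381 of that in control islets, a log2 fold change of -1.39 (SE 0.22, 95% interval -1.90 to -0.88; adjusted p = 0.00894, edgeR quasi-likelihood test). In bulk islet RNA, fewer cells of a type and less RNA per cell cannot be told apart. In the authors' deposited table Gabbr2 has a log2 fold change of -1.32 (adjusted p = 1.19e-06). That table is from this same series and its direction was checked against the fit made here, so its signs are not separate evidence. One transcript, Gabbr2-201 with 19 exons, held 99.5 to 100.0% of the Gabbr2 reads in the knockout and 99.4 to 100.0% in the control libraries.

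Markers of several islet cell types moved in the same comparison. Over all tested genes 5.84% were called lower and 9.95% in either direction. Of 10 beta cell markers 3 were called lower and 0 higher, with summed levels of 71651 to 121954 CPM in knockout and 160486 to 265065 CPM in control islets. Most of these sums were Ins1 and Ins2. The other 8 beta cell markers summed to 12606, 18005 and 12981 CPM in knockout and 17535, 26987 and 21235 CPM in control islets, where the groups overlapped. Of 10 alpha cell markers 4 were lower and 1 higher, and of 6 delta and PP cell markers 4 were lower and 0 higher. Their sums ran from 24669 to 29650 and from 2896 to 3355 CPM in knockout islets, against 37187.5 to 66376 and 7593 to 10519 CPM in control islets. Endothelial markers were called higher in 2 of 6 cases, with sums of 623 to 806 CPM in knockout and 479 to 554 CPM in control islets. Of 10 markers of Schwann cells and neurons 0 were called in edgeR's group-only fit. DESeq2 called 1, lower, beside 2635 of all 16430 genes, and edgeR with the replicate block called 1, higher, beside 14.8% of all genes. At an unadjusted p below 0.05 in edgeR, for which no share over all genes is given here, 2 were higher and 2 lower. The sums of these 10 markers were 196 to 275 CPM in knockout and 168 to 205 CPM in control islets. Acinar sums ran from 1789 to 9649 CPM in knockout and from 634 to 2554 CPM in control islets, with 1 of 9 tested markers called lower. When the acinar level was a term in the fit, the log2 fold change of Gabbr2 was -1.54 (adjusted p = 0.0343). Among the remaining lists, 1 of 5 ductal and 1 of 6 mesenchymal markers were called higher, and of 6 immune markers 1 was higher and 1 lower. With the replicate block 6 of 6 mesenchymal and 3 of 6 endothelial markers were called higher, beside 14.8% of all genes called in that fit. In the same fit 6 of 6 delta and PP cell markers and 5 of 10 beta cell markers were called lower. Of 10 alpha cell markers it called 3 lower and 1 higher. It called 1 of 5 ductal markers higher, 1 of 9 acinar markers lower, and of 6 immune markers 1 higher and 1 lower. Mesenchymal sums ran from 334 to 702 CPM in knockout and from 188 to 409 CPM in control islets. None of the markers was at 0 in all libraries, and the part of the other lists in the Gabbr2 result was not tested.

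Gabbr1 read 35.2, 48.5 and 37.6 CPM in knockout islets and 36.0, 35.9 and 32.3 CPM in control islets. Knockout replicate 2 was the highest library and the other knockout libraries stood close to the controls. The log2 fold change was 0.22 (95% interval -0.14 to 0.57; adjusted p = 0.402). The ratio of Gabbr2 to Gabbr1 TPM, which does not depend on how libraries are scaled, was 0.234, 0.148 and 0.323 in knockout and 0.487, 0.640 and 0.810 in control islets. The groups did not overlap. The mean difference on the log2 scale was -1.50, with p = 0.1 in an exact two-sided permutation test, the smallest value the design allows.

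Gabbr1 is made as several transcripts, and the main receptor forms 1a and 1b are known to start at different promoters. Gabbr1-205, annotated as a target of nonsense-mediated decay, held 32.9% of all Gabbr1 reads. Gabbr1-203, a coding transcript that starts 4665 bases inside the gene, held 25.6%. Gabbr1-209, a short coding transcript of 4 exons at the 5′ end, held 25.4%, and Gabbr1-201, the coding transcript with all 23 exons, held 11.3%. The share of the leading Gabbr1-205 was 31.9, 35.0 and 36.8% in knockout and 26.0, 38.6 and 28.1% in control islets. The groups overlapped, and the exact two-sided permutation test gave p = 0.4, where 0.1 is the smallest possible. Salmon divides reads that fit several transcripts by estimate, so these shares are less certain than gene totals.

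**Figure D2:**
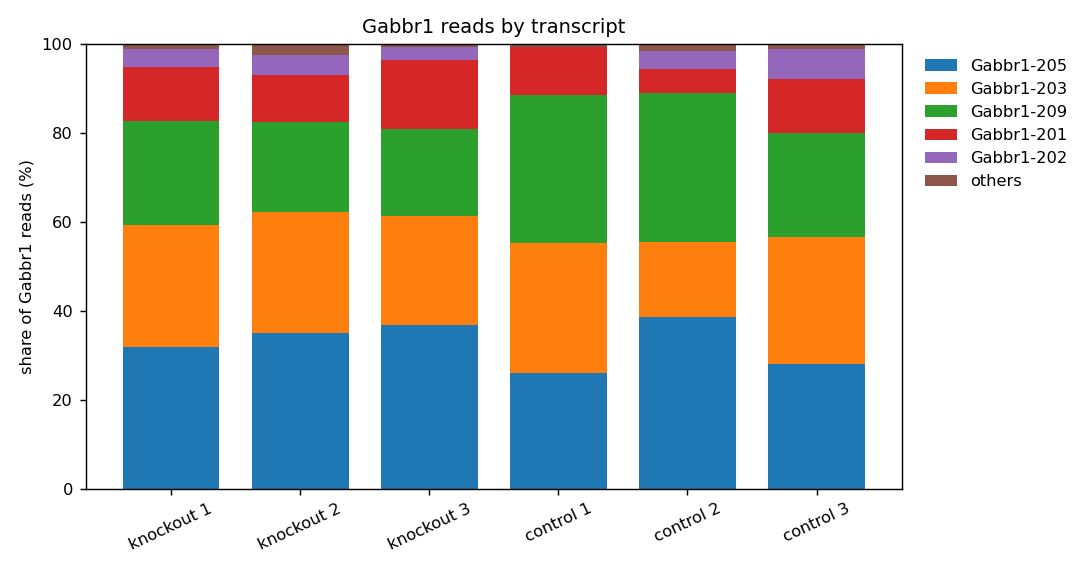
Share of Gabbr1 reads in percent (y axis, 0 to 100) assigned to each transcript in the 3 Dpy30 knockout and the 3 control libraries; each bar is 1 library. Gabbr1-205 takes 31.9 to 36.8% in knockout and 26.0 to 38.6% in control islets.

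The 3 transcripts that reach the last 2000 bases of Gabbr1 were separated from the 8 that end before, after the values were seen, so the split is a description without a test. They are Gabbr1-201, Gabbr1-205 and Gabbr1-203, of which Gabbr1-201 alone spans the whole gene. These 3 held 71.6, 72.9 and 76.8% of Gabbr1 reads in knockout and 66.0, 61.0 and 68.9% in control islets. They summed to 7.81 ± 0.918 TPM in knockout and 4.91 ± 0.584 TPM in control islets (SD, n = 3 each). In neither measure did the groups overlap, but the TPM carry the upward shift given above. Set against these 3 transcripts alone, Gabbr2 had a TPM ratio of 0.530, 0.386 and 0.678 in knockout and 1.28, 2.06 and 2.08 in control islets. These ratios lay below 1 in the knockout and above 1 in the control libraries, whereas the ratio to all Gabbr1 TPM was below 1 in all 6. The 3 transcripts include Gabbr1-205, annotated as a target of nonsense-mediated decay, and where the ratios lie against 1 depends on counting it. In knockout replicate 3 Gabbr2, at 5.91 TPM, exceeded the coding Gabbr1-203 (2.99 TPM) and Gabbr1-201 (1.43 TPM) together.

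**Figure D3:**
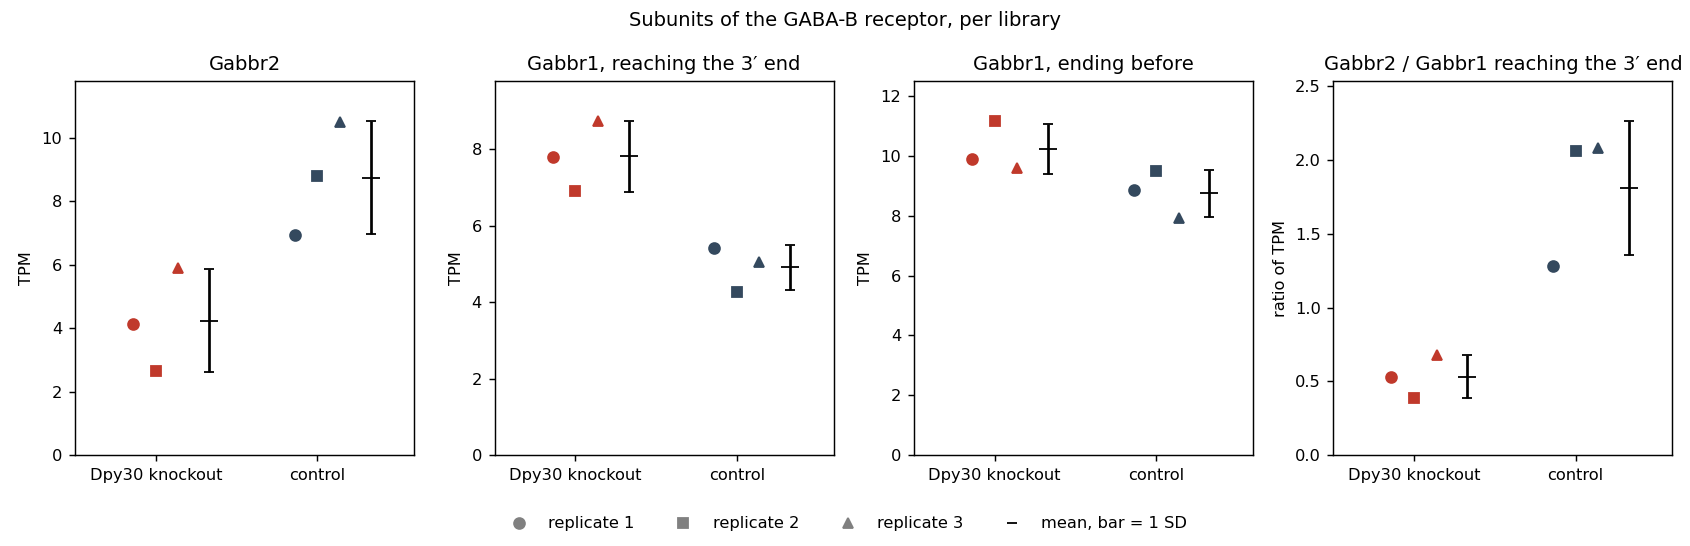
TPM (y axes, linear, from 0) of Gabbr2, of the 3 Gabbr1 transcripts that reach the last 2000 bases of the gene and of the 8 that end before, and the ratio of Gabbr2 to those 3, per library with the mean and 1 SD; Dpy30 knockout in red, control in dark blue. The ratio lies between 0.386 and 0.678 in knockout and between 1.28 and 2.08 in control islets.

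Gabra4, the alpha 4 subunit of GABA-A receptors, lies on chromosome 5 from 71569749 to 71658308 on the minus strand. It had 80, 27 and 56 reads in the knockout and 24, 63 and 16 in the control libraries, which gave 3.21, 1.70 and 2.11 CPM in knockout and 1.00, 2.71 and 0.657 CPM in control islets. Control replicate 2 lay among the knockout libraries. The log2 fold change of 0.69 had a 95% interval from -0.54 to 1.92 (adjusted p = 0.441), the widest of the members at this depth. Gabrb1, with 54 reads in all, overlaps it on the opposite strand.

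Slc6a6, the taurine transporter, which also carries GABA and was the most abundant member, lies on chromosome 6 from 91684053 to 91759066 on the plus strand. It read 254, 199.95 and 208 CPM in knockout islets and 375, 273 and 278 CPM in control islets. The groups did not overlap, but the gap between the highest knockout and the lowest control library was small, and the difference missed the threshold. The log2 fold change was -0.48 (SE 0.18, 95% interval -0.91 to -0.06), with an adjusted p of 0.134 in edgeR's quasi-likelihood test over all tested genes, 0.0292 before adjustment. In the authors' deposited table Slc6a6 has -0.38 on the log2 scale (adjusted p = 0.109). In CPM 2 of the 7 tested members, Gabbr2 and Slc6a6, had groups that did not overlap, both lower in knockout islets. Over all tested genes the groups did not overlap in 34.8%, and were lower in knockout islets in 17.2%.

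The authors' deposited table calls none of the other members. It gives log2 fold changes of -0.07 for Gad1, 0.08 for Abat, -0.22 for Aldh5a1, 0.12 for Gabra4 and 0.09 for Gabbr1, with adjusted p from 0.436 to 0.853. For Gad2 the same table gives -0.15 and no adjusted p. How the authors' fold changes were estimated is not given, so their sizes may not compare directly with those found here. Gabra4, for example, stood at 0.69 in DESeq2 as run here.

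The leading transcripts of the other members had overlapping shares in both groups. Abat-201 held 94.6 to 96.2% of Abat reads in knockout and 94.2 to 97.3% in control islets. Slc6a6-201 held 95.3 to 97.5% in knockout and 96.3 to 97.9% in control islets. Gad1-201 ranged more widely, from 74.4 to 95.8% in knockout and from 80.8 to 94.2% in control islets. Gabra4-201 held 94.4 to 100.0% in knockout libraries and 100.0, 82.8 and 36.9% in control libraries, from few reads. Its mean share was 97.5% in knockout and 73.2% in control islets, with control replicate 3 far below the others. With 3 libraries against 3 no share could reach a p below 0.1, so the exact permutation tests of the 6 genes with reads in several transcripts (p from 0.4 to 0.9) do not show that the shares were alike.

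The genes closest to Gabbr2 in pattern were Usp51, a ubiquitin peptidase, and Rab3d, a small GTPase of secretory granules. Likeness was the root mean square difference of log2 CPM, centred on the mean over the 6 libraries, among 10986 genes of at least 5 CPM. It was 0.13 for Usp51 and 0.14 for Rab3d, beside a median of 0.78. Usp51 averaged 7.38 ± 1.91 CPM in knockout and 21.0 ± 3.76 CPM in control islets. Rab3d averaged 78.3 ± 12.9 CPM in knockout and 183.6 ± 27.7 CPM in control islets (SD, n = 3 each).

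Beyond the 8 members, 71 further genes of GABA signalling, carriage and supply were listed by role, and 49 of them passed the filter on low counts. Of these, 7 were called lower and 0 higher, 14.3% beside 9.95% over all genes. Their median log2 fold change was 0.04, beside 0.01 over all genes. Blocking on replicate number gave 8 lower and 5 higher, 26.5% beside 14.8% over all genes in the same fit.

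**Figure D4:**
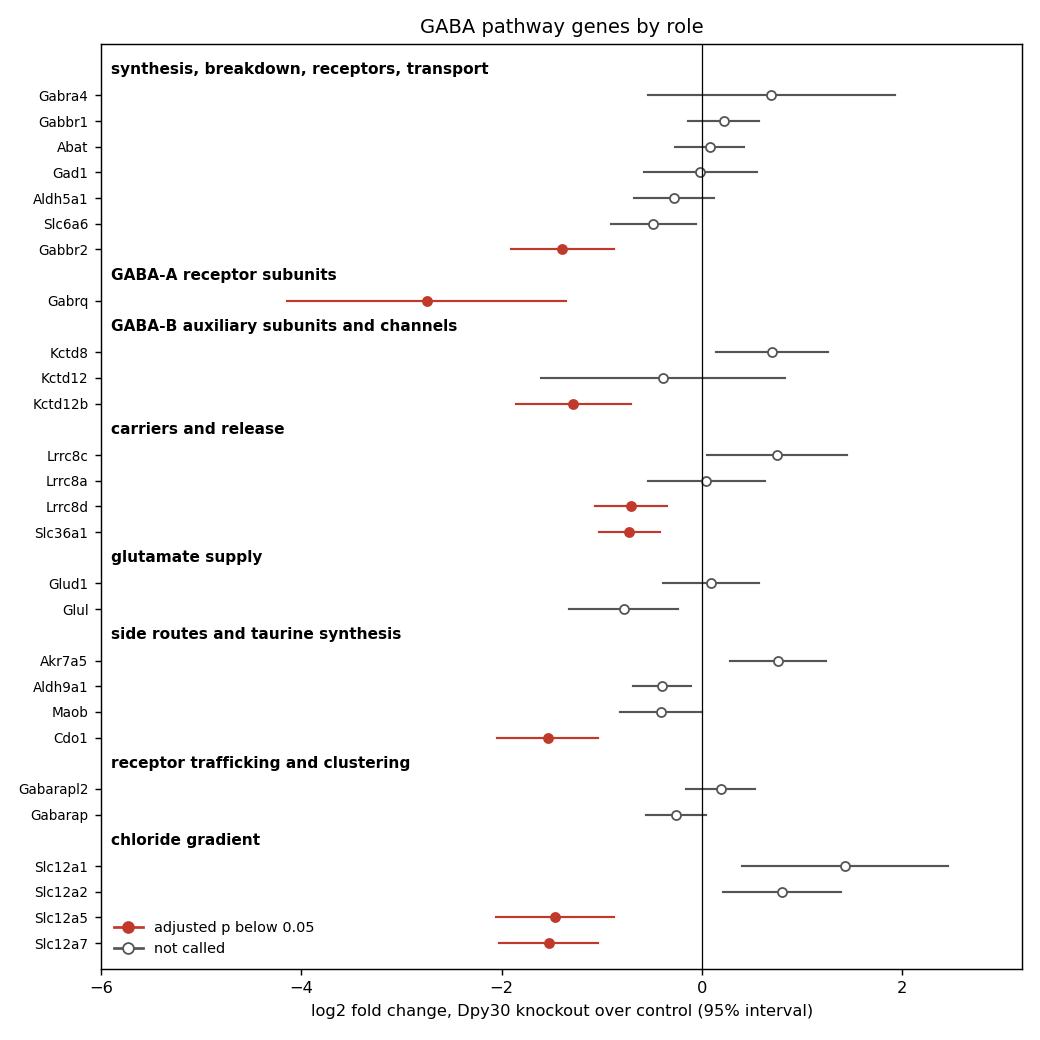
Log2 fold change, Dpy30 knockout over control, of the 7 tested members and of 20 other GABA genes named in the text, by role (x axis; lines are 95% intervals, not adjusted for multiple tests). Filled red points passed an adjusted p of 0.05; they are Gabbr2 at -1.39 and 7 others, all left of 0.

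Among GABA-A subunits only 6 of 18 could be tested, and the 12 others reached at most 0.332 TPM in any library. Gabrq, the theta subunit, was called lower (adjusted p = 0.0280) from 3, 0 and 3 reads in knockout and 11, 15 and 18 reads in control libraries. With 1 library left out, the call held in 1 of 6 fits, and with the acinar covariate it was lost (adjusted p = 0.101). Gabra6 had 0 reads in all 6 libraries, which allows 0.113 to 0.189 CPM per library (3 reads, counting error only).

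Around the GABA-B receptor, Kctd12b, one of the KCTD proteins that bind the receptor, fell. It read 48.4, 29.6 and 59.2 CPM in knockout and 95.1, 113 and 126 CPM in control islets, with no overlap (log2 fold change -1.28, SE 0.25, adjusted p = 0.0178). With 1 library left out, its call held in 4 of 6 fits. Its relative Kctd12 varied widely within groups, at 116 ± 49.1 CPM in knockout and 152 ± 108 CPM in control islets, and was not called (adjusted p = 0.681). Kctd8 was among the genes called higher with the replicate block (log2 fold change 0.71, adjusted p = 0.0405), but not without it (adjusted p = 0.111). Of the 8 genes in this group 6 were tested and 1 was called (16.7%, beside 9.95% over all genes).

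The vesicular GABA carrier Slc32a1 had 0 reads in every library, with the same limit. Slc36a1, a proton-coupled carrier of small amino acids that also takes GABA, fell to 44.8 ± 4.64 CPM in knockout islets, against 74.1 ± 4.25 CPM in control islets (log2 fold change -0.72, SE 0.13, adjusted p = 0.0140). Lrrc8d, a subunit of the volume-regulated anion channel, fell to 46.3 ± 7.07 CPM in knockout islets, against 75.8 ± 8.43 CPM in control islets (log2 fold change -0.71, SE 0.16, adjusted p = 0.0287). With 1 library left out, the call of Slc36a1 held in 3 fits and that of Lrrc8d in 1 fit of 6. With the acinar covariate Slc36a1 stood at -0.74 and missed the threshold (adjusted p = 0.0579). Of 12 carriers and channels 6 were tested, and these 2 were called (33.3%, beside 9.95% over all genes). With the replicate block another channel subunit, Lrrc8c, was called higher (log2 fold change 0.72, adjusted p = 0.0235; 0.156 without the block). Lrrc8a, the obligate subunit of that channel, was not called (log2 fold change 0.04, adjusted p = 0.932).

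Genes of the chloride gradient, which sets whether GABA-A receptors excite or inhibit, gave 2 lower of 5, beside 5.84% of all genes called lower. Slc12a7, the potassium chloride cotransporter KCC4, read 49.9, 58.0 and 53.0 CPM in knockout and 161, 195 and 109 CPM in control islets. Slc12a5, known as KCC2 and best known from neurons, read 3.81, 6.99 and 6.69 CPM in knockout and 15.8, 15.3 and 17.3 CPM in control islets. Neither gene's groups overlapped. The log2 fold changes were -1.53 for Slc12a7 (SE 0.22, adjusted p = 0.00553) and -1.47 for Slc12a5 (SE 0.26, adjusted p = 0.0123), and both calls held whichever of the 6 libraries was left out. With the acinar covariate Slc12a7 was called (-1.66, adjusted p = 0.0222), while Slc12a5 kept its size and missed the threshold (-1.44, adjusted p = 0.0649). With an offset for transcript length Slc12a5 missed it too (-1.33, adjusted p = 0.0793). The chloride importers depended on the tool. In edgeR's group-only fit Slc12a2, or NKCC1, was at 0.80 on the log2 scale (adjusted p = 0.0895; 0.0409 with the replicate block) and Slc12a1 at 1.43 (adjusted p = 0.0843; 0.0220 with the block). DESeq2 called both higher (adjusted p = 0.0273 for Slc12a2 and 0.0175 for Slc12a1), as did edgeR without the filter on low counts (0.0464 and 0.0424), and limma-voom called Slc12a1 (0.0498).

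In the side routes Cdo1, the cysteine dioxygenase that opens taurine synthesis, fell to 3.56 ± 0.477 CPM in knockout islets, against 10.4 ± 1.32 CPM in control islets. The log2 fold change was -1.54 (SE 0.22, adjusted p = 0.00591), and the call held whichever library was left out. It was the 1 call among 8 tested genes (12.5%) in edgeR's group-only fit, beside 9.95% over all genes. The most abundant were Maob (-0.41, adjusted p = 0.179) and Aldh9a1 (-0.40, adjusted p = 0.0857; 0.0478 in DESeq2). Akr7a5, an aldo-keto reductase, stood at 0.75 (adjusted p = 0.0591) and was called higher by DESeq2 (0.0131), with the replicate block (0.0229) and without the filter (0.0416). Of 6 genes of glutamate supply 0 were called in edgeR's group-only fit and by limma-voom and 1 by DESeq2, which called 2635 of all 16430 genes. At an unadjusted p below 0.05 in edgeR, for which no share over all genes is given here, 1 was higher and 1 lower. The most abundant, glutamine synthetase Glul, averaged 369 ± 69.5 CPM in knockout and 634 ± 175 CPM in control islets (log2 fold change -0.78, adjusted p = 0.0747; 0.0294 with the replicate block, 0.00925 in DESeq2 and 0.0334 without the filter). Glud1, glutamate dehydrogenase, was not called (log2 fold change 0.09, adjusted p = 0.817). Of 12 genes of receptor trafficking 0 were called by edgeR and by limma-voom and 2 by DESeq2, beside its 2635 of all 16430 genes. At an unadjusted p below 0.05 in edgeR, again without a share over all genes, 1 was higher and 2 were lower. The most abundant were Gabarap (-0.26, adjusted p = 0.240) and Gabarapl2 (0.19, adjusted p = 0.453).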

How the data were processed

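Per the labels' protocols, RNA was selected by poly(A) tail and made into strand-specific libraries; Trimmomatic, DESeq2 and Salmon, and the builds mm10 and GRCm38, are listed in the submitters' processing notes, with settings, versions and annotation not given in the sources used here. Per the file headers, the authors deposited estimated counts, TPM and effective lengths per transcript and library, and a table of their own log2 fold changes and p-values; their table of scaled values per gene was not used. Here 139852 of 140948 transcripts were assigned to GENCODE vM21 genes by identifier, summed and rounded. Genes passing filterByExpr (minimum count 10) were scaled by TMM and tested with edgeR 4.0.16 (R 4.3.3; quasi-likelihood, group only, Benjamini-Hochberg over all tested genes, threshold 0.05, two-sided). SEs come from the F statistic, intervals from SE and the fit's degrees of freedom. The procedure was tested on simulated counts.

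Members, lists and tests were chosen with earlier results of these data known. Named were all members, other GABA genes that were called or among the 2 highest by TPM in their role, and the 2 nearest genes of a called member; Lrrc8a, Lrrc8c, Akr7a5, Gabra6, Slc32a1, Slc12a1, Slc12a2 and Kctd8 were added after their values were seen, and some genes the rule takes are not reported here. Deviations of same-numbered libraries from their group means correlated at r = 0.517, 0.127 and 0.185. Knockout 2 with control 3 gave 0.229 and knockout 3 with control 2 gave 0.1, so only replicate 1 stood out. The labels do not say what the numbers mark. The main tests ignored them, and a replicate block served as an alternative. Alternatives used DESeq2 1.42.0 and limma 3.58.1 (voom), no filter, a length offset, other scaling, a replicate block, an acinar covariate, and leaving out each library.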

Additional observations from a re-analysis of the deposited data

How the results depend on the processing

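The call and direction of Gabbr2 were kept in all 14 alternatives, with log2 fold changes of -1.59 to -1.29 and adjusted p from 4.18e-07 to 0.0367, and in each of them Gabbr2 was the 1 called member. Without each library in turn the log2 fold changes ran from -1.59 to -1.29 for Gabbr2, -0.60 to -0.32 for Slc6a6, -0.42 to -0.12 for Aldh5a1, 0.07 to 0.31 for Gabbr1, 0.34 to 1.49 for Gabra4, 0.0011 to 0.17 for Abat and -0.26 to 0.20 for Gad1. The sign of Gad1, near 0, turned with limma-voom (0.0375) and the replicate block (0.0363), and that of Abat with the acinar covariate (-0.0674); the cause was not tested. Without the filter on low counts Gad2 had a log2 fold change of -1.15 and was not called (adjusted p = 0.417). Over all genes the calls numbered 2635 with DESeq2, 756 with the acinar covariate, 2430 with the replicate block and 737 to 1330 without 1 library, against 1634. Of 49 other GABA genes tested, 14 were called with DESeq2, 13 with the replicate block and 4 with the acinar covariate, against 7 in the main fit. Each of these fits tested 16430 genes in all. Without the filter 11 of 68 other GABA genes were called, beside 1964 of all 31158 genes tested. Without 1 library 3 to 8 of 49 to 51 tested were called. The count was 4 without knockout replicate 3 and 3 without control replicate 2 or control replicate 3. The block changed no member's call.

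The log2 ratio of Gabbr2 to Gabbr1 differed by -1.77 to -1.20 without 1 library and by -1.77 with the Gabbr1 transcripts that reach the gene's end alone, an alternative chosen after seeing the data, and the Gad1 share of TPM by 0.0737 to 0.116 percentage points. Leading transcript shares differed without 1 library by -10.7 to 0.215 points for Gad1, -0.700 to 0.837 for Abat and -0.855 to 0.236 for Slc6a6, and with TPM in place of reads by 0.571 for Gad1. Gabra4, with 16 to 80 reads per library, and Gad2, with about 3 to 10, are limited by depth.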
